A study of Mus musculus with 4 samples.

Results

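Melanoma cells were the barcodes of a single-cell RNA library that carried transcripts of pigment genes with few or none of the C1q and Cd3 genes, which mark macrophages and T cells. They were found in the library from tumours of mice treated with Tc1 cells, among barcodes in which 500 or more genes were detected and mitochondrial genes held no more than 10% of the unique molecular identifiers (UMIs). They were chosen by raw UMIs of marker genes: a barcode was taken when Pmel, Dct, Mlana and Tyrp1 together had at least 10 UMIs, C1qa, C1qb and C1qc fewer than 5, and Cd3d, Cd3e and Cd3g at most 1. This gave 228 of the 11933 kept barcodes, or 1.91% (exact Clopper-Pearson 95% interval 1.67 to 2.17%, counting error only). The whole series held 20137 kept barcodes in its 2 RNA libraries.

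The WT B6 hosts carried Thy1.2 and bore chimeric tumours. They had received Thy1.1+ Pmel-1 T cells, as Tc1 or as Tc9 cells, in both groups together with adjuvant. Tumours of 3 mice were pooled per group and taken on day 30. The material was enriched on Percoll and sorted for CD4 T cells, so the melanoma cells described here are those that passed a sort meant for another cell type. With 1 RNA library per group and pooled animals there was no test between groups or animals, and all values below describe the barcodes of that 1 Tc1 library.

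Melanoma arises from melanocytes, the pigment cells of neural crest origin. Melanocytes make melanin in melanosomes with tyrosinase (Tyr) and its relatives Tyrp1 and Dct, on fibrils of the protein gp100 that Pmel encodes, and the transcription factors Mitf, Sox10 and Pax3 control this programme. Pmel-1 T cells recognise a peptide of gp100 on class I major histocompatibility (MHC) molecules, which interferon-gamma is known to induce.

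Melanoma cells were deep barcodes, which follows in part from the rule. It asked for 10 raw pigment UMIs, and these made up 1.18% of UMIs at the median melanoma cell, so shallow tumour barcodes could fall short. Melanoma cells had 688 UMIs at the lowest, 41452.5 at the median and 186001 at the highest, against 667, 5343 and 147074 in the other 11705 kept barcodes. The median number of genes was 6469 in melanoma cells and 1924 in the other barcodes. The ranges overlapped, but melanoma cells held 11.4% of the kept UMIs with 1.91% of the barcodes. Their own depth varied widely: 152 had at least 10000 UMIs and held 97.7% of all UMIs of melanoma cells, while the other 76 lay under that depth. Levels given below as CPM (UMIs of a gene scaled to 1000000 summed UMIs) therefore rest mostly on the 152 deep cells.

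**Figure D1:**
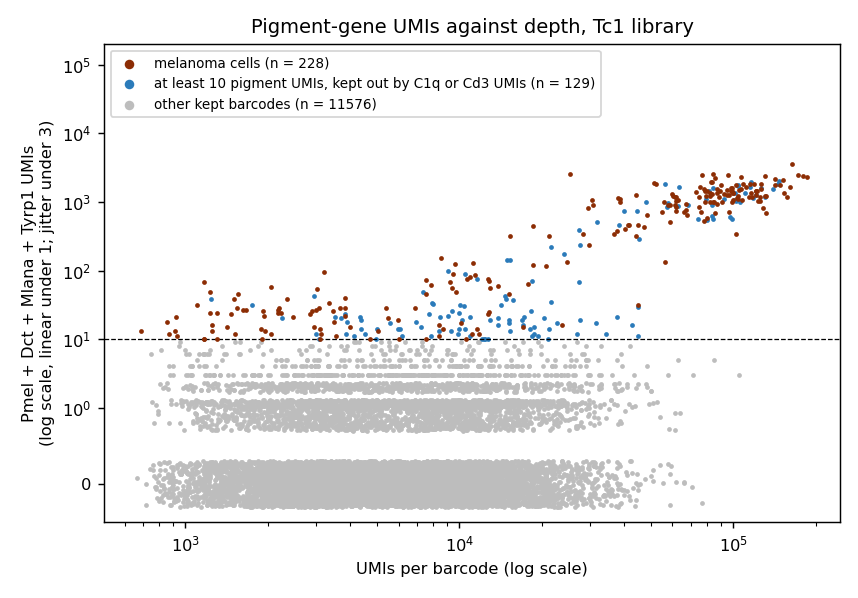
UMIs of the 4 pigment genes (vertical, log scale, jittered under 3) against all UMIs (horizontal, log scale) for each kept barcode of the Tc1 library; red points are the 228 melanoma cells, blue the 129 barcodes with at least 10 pigment UMIs that were kept out by C1q or Cd3 UMIs, grey the rest, and the dashed line marks 10 UMIs. Melanoma cells run from 688 to 186001 UMIs, and above 40000 UMIs lie 116 melanoma cells and 40 kept-out barcodes with at least 10 pigment UMIs.

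The sum of the 4 pigment genes, which chose the cells, was 10 UMIs at the lowest, 486.5 at the median and 3594 at the highest. The cells just inside the limit, 27 with 10 to 14 pigment UMIs, had a median of 3098 UMIs, and 18 of them had a UMI of Tyr or Slc45a2, 2 of Ptprc and 12 of Lyz2. Just outside it, 45 barcodes with 5 to 9 pigment UMIs had a median of 1724 UMIs, and 20 of them had a UMI of Tyr or Slc45a2, 12 of Ptprc and 23 of Lyz2. In all, 357 kept barcodes reached 10 pigment UMIs, and the 129 that were left out exceeded the limit for C1q (70), for Cd3 (99) or for both (40).

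Pigment transcripts were also found outside the melanoma cells. After each barcode was thinned to 2000 UMIs, at least 1 UMI of the 4 genes was present in 99.0% of melanoma cells (197 of 199, the other 29 being shallower), 16.2% of macrophages and 12.5% of T cells (95% interval 11.6 to 13.5%). Macrophages were here the 1804 barcodes with at least 10 C1q UMIs and at most 1 Cd3 UMI, and T cells the 5195 with at least 3 Cd3 UMIs and fewer than 5 C1q UMIs, both with under 10 pigment UMIs. Without thinning these shares were 100% of melanoma cells (median 41452.5 UMIs), 34.8% of macrophages (median 6012) and 27.1% of T cells (median 4929). Tyr, which the choice of cells did not use, had a UMI in 61.3% of thinned melanoma cells, 0.741% of macrophages and 0.879% of T cells. Shares near those of macrophages and T cells are read here as background. The source of these UMIs was not tested.

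The Tc9 library, at a median of 5492.5 UMIs in its T cells, held no barcode that met the same conditions. None of 8204 allows a share of up to 0.0366% (3 counts), and 1 Tc9 barcode reached 10 pigment UMIs but was kept out by Cd3. Among thinned T cells, a UMI of the 4 genes was found in 12.5% in the Tc1 library and 0.338% in the Tc9 library. With 1 library per group, the treatment and the library cannot be told apart. The libraries shared 148 barcode sequences, and none of them was a melanoma cell.

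T cell receptor contigs, read from a separate library, gave a readout that the choice of cells did not use. The limit on Cd3 UMIs also keeps out T cells, so a low share of contigs follows in part from that choice. A productive contig was attached to 1 of 228 melanoma cells (0.439%, interval 0.0111 to 2.42%), 0.721% of macrophages and 70.9% of T cells. That contig had 2 UMIs, while contigs elsewhere had a median of 5. The 129 pigmented barcodes kept out by C1q or Cd3 carried a contig in 41.9%.

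The label was checked against markers. The melanoma list (the 4 genes of the rule with Tyr, Slc45a2, Mitf and Sox10) summed to 16004 CPM in melanoma cells and 732 CPM in the other barcodes, with all 8 of its genes detected. The 4 genes of the rule made up 13820 CPM of that sum, and the rule also limited the Cd3 and C1q genes among the T cell and macrophage markers, so these sums were largely fixed by the choice of cells. Among the markers outside the rule were Tyr, Slc45a2, Mitf and Sox10, given below. T cell markers outside it included Cd4 (0.337 CPM in melanoma cells, 51.1 CPM in the others), Trac (0.337 against 92.8 CPM) and Trbc2 (0.506 against 221 CPM). All 9 T cell markers, those of the rule included, were detected, and 56 of the 228 melanoma cells had a UMI of 1 or more of them. Together these markers stood at 5.31 CPM in melanoma cells against 2079 CPM in the others, although the sort was for CD4 T cells. Pan-leukocyte markers (Ptprc, Coro1a, Laptm5, Cd52) stood at 38.1 CPM against 4249 CPM, and fibroblast markers at 2.78 CPM against 294 CPM. In melanoma cells no UMI was found of the endothelial gene Cdh5, of the epithelial genes Epcam, Krt8, Krt18, Krt19, Krt5 and Krt14, or of the 4 mast cell and basophil markers. The other 5 endothelial markers were detected, in 105 of the 228 cells. All 6 endothelial markers together stood at 27.8 CPM in melanoma cells and 110 CPM in the others. Cdh1, the remaining epithelial marker, was found in 15 melanoma cells. Schwann cell markers, which share Sox10 with melanocytes, reached 364 CPM in melanoma cells and 90.8 CPM in the others. Macrophage markers summed to 1474 CPM against 7320 CPM, and the Apoe they include was also found in all 116 melanoma cells with at least 40000 UMIs. A UMI of Ptprc, Lyz2 or Tyrobp was present in 136 of the 228 melanoma cells.

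In 5 of the 228 the UMIs of pan-leukocyte and class II genes (59 to 388) were at least as many as those of the 4 pigment genes (12 to 31). These 5 had 1511 CPM of melanoma markers, against 16115 CPM in the other 223, and 3012 CPM of monocyte markers, against 18.0 CPM. They met the conditions and stay among the 228. Sums of the class II and interferon lists are given below with and without them.

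Genes were compared between melanoma cells and the other kept barcodes as the log2 ratio of CPM, for 9813 genes with at least 10 CPM on either side. This is the contrast that chose the cells, so the values are a description. In melanoma cells 2509 genes (25.6%) were at least 2-fold higher and 2199 (22.4%) at least 2-fold lower. The median over all genes was 0.24. Scaling by trimmed means of M values (TMM) moved all ratios down by 0.34 and turned the split into 1792 higher and 2662 lower, and scaling to the median gene gave 1974 and 2496. The intervals of ratios reflect counting error alone. They ignore that UMIs come grouped in cells, which makes them too tight, above all where a few cells hold most UMIs of a gene. UMIs were counted per transcript end and are not divided by gene length, so levels are compared between groups of barcodes and not between genes.

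**Figure D2:**
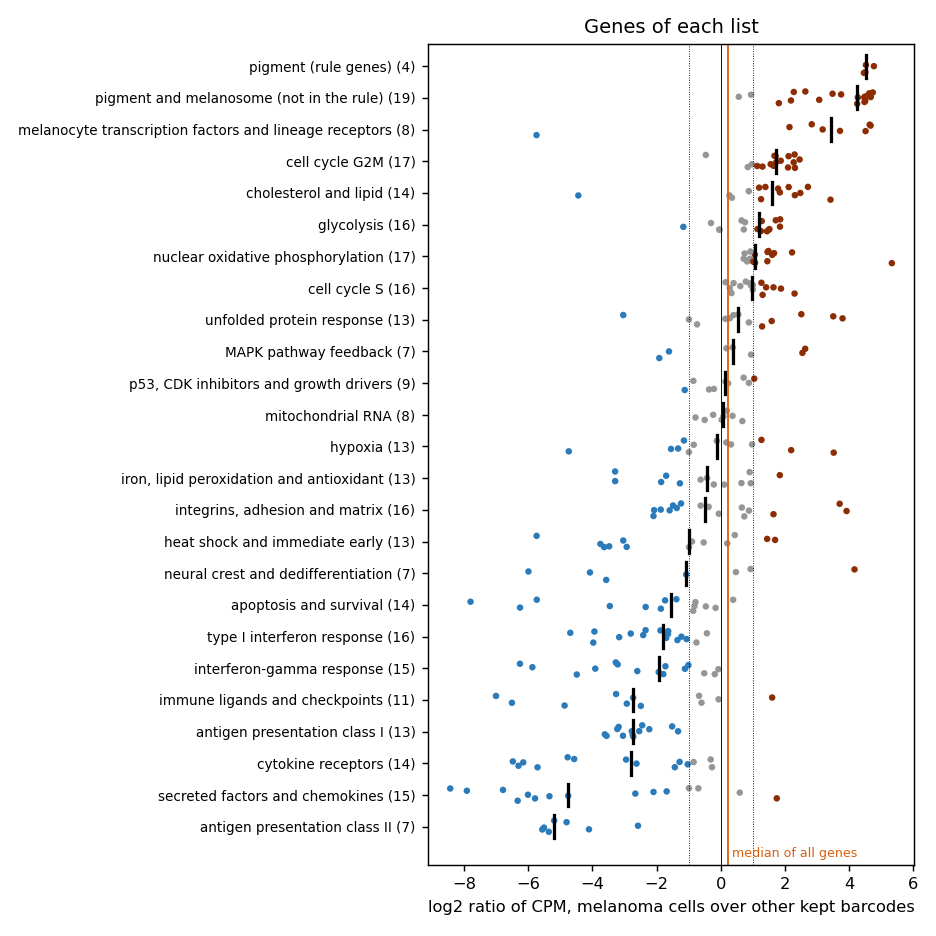
Log2 ratio of CPM of melanoma cells over other kept barcodes (horizontal) for the genes of 25 lists (rows, with the number of genes at 10 CPM or more); each point is a gene, red at least 2-fold higher, blue at least 2-fold lower, the black bar is the list median and the orange line the median of all genes (0.24). Pigment lists lie highest, with medians of 4.51 and 4.25, and class II antigen presentation lowest, at -5.19.

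Genes of melanin synthesis and of the melanosome were higher nearly throughout. The 4 genes that chose the cells had 5668 CPM (Pmel), 4211 CPM (Dct), 1873 CPM (Mlana, a melanosome protein) and 2068 CPM (Tyrp1) in melanoma cells, against 208, 192, 82.6 and 90.2 CPM in the other barcodes. Of the 19 melanosome genes outside the rule, 17 were at least 2-fold higher and none lower, with a median log2 ratio of 4.25. Tyr, the rate-limiting enzyme of melanin synthesis, had 804 CPM in melanoma cells and 33.4 CPM in the others (log2 ratio 4.59, interval 4.53 to 4.65). The transporters of the melanosome membrane Slc45a2 (826 against 33.6 CPM, 4.62) and Slc24a5 (669 against 26.3 CPM, 4.67) and the G protein-coupled receptor Gpr143 (71.3 against 2.68 CPM, 4.73) had ratios like that of Tyr. Part of the level in the others came from pigmented barcodes kept out by C1q or Cd3: in macrophages Tyr had 3.20 CPM and in T cells 3.44 CPM. Genes of melanosome transport that other cells also use were less far apart, such as Rab27a (117 against 33.3 CPM, 1.81) and Myo5a (396 against 81.9 CPM, 2.27). Atp7a (0.94) and Hps4 (0.56) were the 2 that stayed under 2-fold.

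Several of these genes share a motif near their start. The M-box, TCATGTG or CACATGA on the other strand, is a sequence that MITF is known to bind. It was searched on both strands in the 250 bases before the start of RefSeq promoters (GRCm38), and 1068 of 32851 promoters (3.25%) held it. Among the pigment and melanosome genes outside the rule it was found in 4 of 19 promoters, those of Tyr, Mc1r, Slc24a5 and Trpm1, and among the genes of the rule in those of Dct and Tyrp1, the 2 that had a promoter in the table. It was found in none of the 5 matched genes of the transcription factor list. A match describes the letters of the window and is not evidence of binding. Tyr encodes tyrosinase and lies on chr7, Trpm1 encodes an ion channel of melanocytes, Slc24a5 was among the genes with the highest ratios, and Dct carries the motif at 2 places. Their windows are shown 5′ to 3′ on the strand of the gene, with the motif in capitals. They are chr7:87493513-87493762 (minus strand) for Tyr, chr14:118052247-118052496 (minus) for Dct, chr2:125067877-125068126 (plus) for Slc24a5 and chr7:64153585-64153834 (plus) for Trpm1.
Tyr: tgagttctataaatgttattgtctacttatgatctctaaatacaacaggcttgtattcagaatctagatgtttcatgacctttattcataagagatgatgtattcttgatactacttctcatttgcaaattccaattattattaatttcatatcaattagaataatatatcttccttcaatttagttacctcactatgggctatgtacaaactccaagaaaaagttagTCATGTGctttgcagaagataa
Dct: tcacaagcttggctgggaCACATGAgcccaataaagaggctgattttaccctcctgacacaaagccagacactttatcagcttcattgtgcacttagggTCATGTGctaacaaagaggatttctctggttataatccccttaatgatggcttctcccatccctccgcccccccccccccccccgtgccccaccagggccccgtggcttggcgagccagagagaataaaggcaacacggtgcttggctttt
Slc24a5: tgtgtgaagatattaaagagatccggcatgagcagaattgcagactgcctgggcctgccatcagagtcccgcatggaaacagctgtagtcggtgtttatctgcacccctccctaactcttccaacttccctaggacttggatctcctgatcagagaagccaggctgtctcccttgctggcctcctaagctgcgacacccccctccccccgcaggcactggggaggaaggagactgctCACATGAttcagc
Trpm1: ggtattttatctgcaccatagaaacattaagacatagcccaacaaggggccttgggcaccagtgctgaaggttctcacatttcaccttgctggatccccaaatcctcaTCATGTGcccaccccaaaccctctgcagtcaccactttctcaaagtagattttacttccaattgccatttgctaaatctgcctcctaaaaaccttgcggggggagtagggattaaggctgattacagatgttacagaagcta
The first base of the motif stood 22 bases before the start in Tyr, 232 and 151 in Dct, 13 in Slc24a5 and 142 in Trpm1.

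Transcription factors and receptors of the lineage followed. Sox10, which marks neural crest derivatives, had 175 CPM in melanoma cells and 6.90 CPM in the others (4.67), Pax3 had 305 against 13.4 CPM (4.51), and Tfap2a 54.5 against 2.19 CPM (4.64). Mitf, the master regulator of melanocytes, had 379 CPM in melanoma cells and 85.9 CPM in the others (2.14). Mitf was not particular to pigment cells in this library, since macrophages had 146 CPM of it and T cells 28 CPM. Of the 8 lineage genes at the minimum, 7 were at least 2-fold higher, including Met, the receptor of hepatocyte growth factor (666 against 50.8 CPM, 3.71). The 1 lower gene was Ednrb, the endothelin receptor of melanoblasts, with 5 UMIs in all melanoma cells together (0.422 CPM, against 22.5 CPM in the others, and 46.6 CPM in macrophages). Of 7 genes of the neural crest and dedifferentiation list at the minimum, 4 were at least 2-fold lower and 1 higher (median -1.08), while against macrophages alone 4 were lower and 3 higher. Axl had 2.36 CPM in melanoma cells and 28 CPM in the others (-3.57), Zeb1 1.60 against 102 CPM (-5.99) and Fn1 34.2 against 575 CPM (-4.07). Zeb2 had 279 against 587 CPM (-1.08). Ngfr, Egfr, Wnt5a and Twist1 had no UMI in melanoma cells, which allows up to 0.253 CPM (3 counts over the group), and Egfr at 3.08 CPM in the others was thus at least 12.2-fold lower. S100b, a marker of melanocytes and Schwann cells, was the gene of that list with the highest ratio, 134 against 7.48 CPM (4.16).

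**Figure D3:**
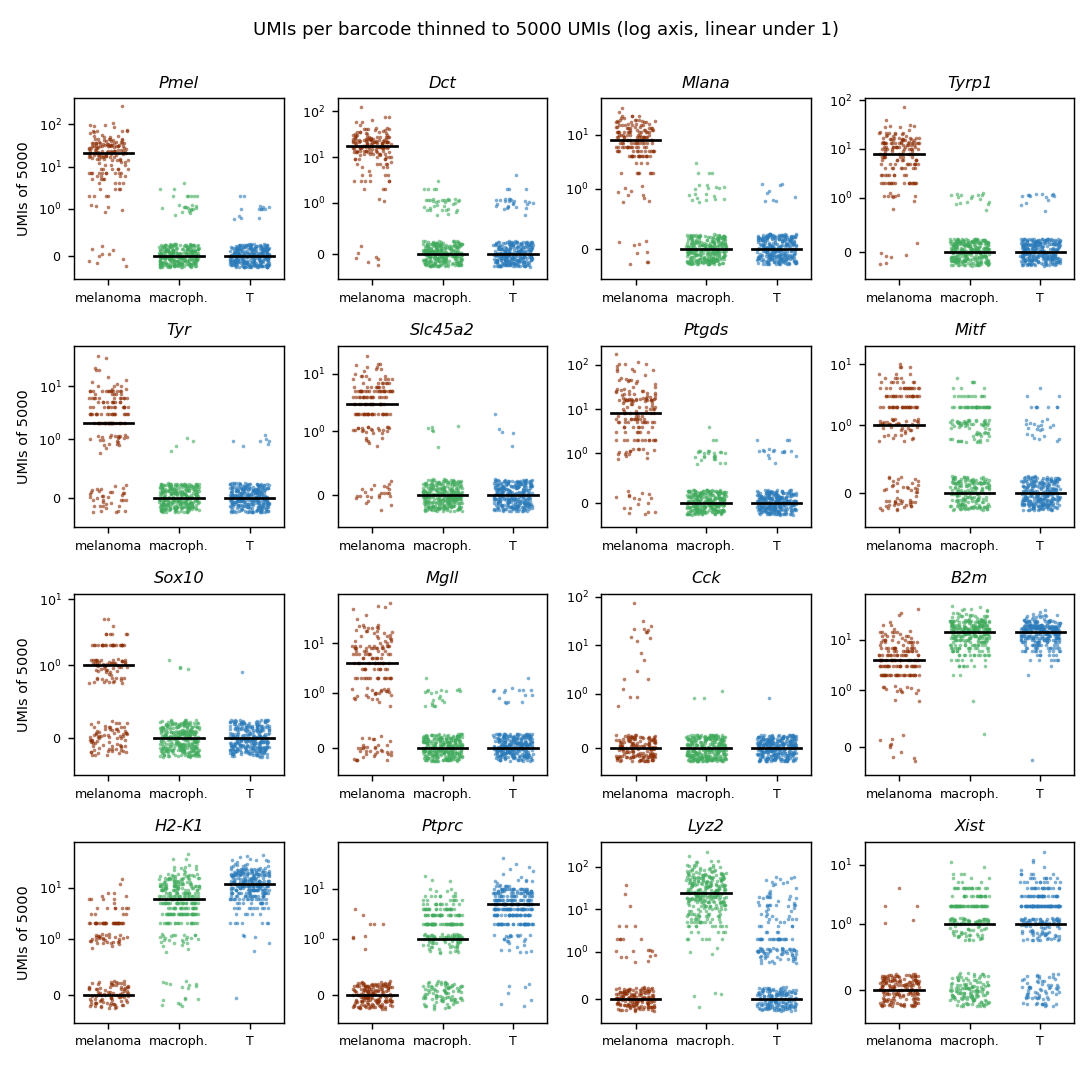
UMIs per barcode after thinning to 5000 UMIs (vertical, log scale, linear under 1, jittered under 2) for 16 genes in melanoma cells (left, 171 barcodes), macrophages (middle) and T cells (right); up to 300 evenly spaced barcodes are drawn per population and black bars are medians over all of them. Pmel, Dct, Mlana, Tyrp1 and Tyr lie highest in melanoma cells, while B2m and H2-K1 lie lower in them than in macrophages and T cells, and Cck is at 0 in all but 20 melanoma cells.

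The 15 genes with the highest ratios over the other barcodes, at 50 CPM or more and outside the rule, included few that serve pigment. Cck, which encodes the peptide hormone cholecystokinin, had the highest ratio, 357 CPM in melanoma cells and 3.93 CPM in the others (6.51), although a UMI of it was found in 18.0% of melanoma cells. Ppargc1a, the coactivator PGC-1alpha that drives mitochondrial biogenesis, had 212 against 5.28 CPM (5.33). Next came the potassium channel gene Kcnj13 (167 against 4.58 CPM, 5.19), the glutamate receptor gene Gria4 (50.8 against 1.55 CPM, 5.03) and the ephrin receptor gene Epha3 (259 against 8.38 CPM, 4.95). The others were Gsta2 and Gsta4, which encode glutathione transferases (4.79 and 4.71), the netrin receptor gene Unc5c (4.78), the tetraspanin gene Tspan10 (4.78), Ankfn1 (4.74), the carbonic anhydrase gene Car14 (4.72), the glycine receptor gene Glrb (4.72) and Fkbp6 (4.70), besides Gpr143 and Slc24a5. Kcnj13, Ppargc1a, Tspan10 and Slc24a5 hold the M-box in the window before their start, 4 of the 12 genes matched. Among the 10 lowest were the leukocyte genes Gimap5, Grap2, Cd6, Il1r2, Il2rb, Spn, Gzma and Tbx21, besides Gm8369, from -10.05 for Gimap5 to -9.37 for Tbx21, each with 1 to 4 UMIs in melanoma cells. The highest ranks depend on the comparison, since the other barcodes included the 129 pigmented ones kept out by C1q or Cd3. The melanosome genes outside the rule, at a median of 4.25 here, had 5.78 against macrophages alone and 6.69 against T cells alone. Against macrophages Gpr143 had the highest ratio of all genes (8.87), while against T cells the highest was 10.05 and that list reached 8.08 (Slc45a2).

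Genes that present antigen to T cells were lower in melanoma cells than in the other barcodes, nearly all of which held leukocyte RNA. All 13 genes of the class I list were at least 2-fold lower, with a median log2 ratio of -2.74. The heavy chain H2-K1 had 213 CPM in melanoma cells and 1991 CPM in the others (-3.22, interval -3.28 to -3.16), and H2-D1 314 against 2096 CPM (-2.74). The light chain B2m was less far apart, 943 against 2694 CPM (-1.51). The immunoproteasome subunit Psmb8 had 57.4 against 520 CPM (-3.18), the peptide transporter Tap1 19.3 against 127 CPM (-2.72) and Nlrc5, the transactivator of class I genes, 10.7 against 88.4 CPM (-3.05). Heavy chain genes are near copies of each other, so reads could be split among H2-K1, H2-D1, H2-Q4 and H2-T23. Per barcode thinned to 5000 UMIs, the list summed to 0, 7 and 91 UMIs (lowest, median, highest) in melanoma cells, 3, 38.5 and 152 in macrophages and 9, 50 and 153 in T cells. H2-K1 had 0, 0 and 15 UMIs in melanoma cells, 0, 6 and 47 in macrophages and 0, 12 and 54 in T cells. The ranges overlapped, and the highest H2-K1 values of melanoma cells stood near the median of T cells. Of the 116 melanoma cells with at least 40000 UMIs, 113 had a UMI of H2-K1, 115 of H2-D1 and 116 of B2m.

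The same 13 class I genes were lower by at least 2-fold when melanoma cells were set against macrophages alone (median -2.39) or T cells alone (median -3.06). At that size, 35.3% of genes were higher and 19.4% lower than in macrophages, and 26.1% higher and 22.3% lower than in T cells. The deep melanoma cells against the other barcodes gave 25.7% higher and 22.3% lower, and the 13 class I genes were lower there too (median -2.75).

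All 7 class II genes, which professional antigen-presenting cells express, were at least 2-fold lower, from H2-Ab1 (34.2 against 1610 CPM, -5.56) to H2-DMb1 (27.2 against 162 CPM, -2.58). The sum of the list was 276 CPM in all melanoma cells and 185 CPM without the 5 that were rich in leukocyte UMIs, against 10194 CPM in the others. Thinned to 5000 UMIs, 107 of 171 melanoma cells had no class II UMI at all. Melanoma cells under 10000 UMIs had 823 CPM of Cd74 and the deep ones 105 CPM, against 9233 CPM in macrophages.

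Interferon-induced genes were mostly lower as well. Of 16 genes of the type I response 14 were at least 2-fold lower (median -1.79), among them Irf7 (5.90 against 152 CPM, -4.69) and Isg15 (55.9 against 298 CPM, -2.42), while Bst2 had 281 against 380 CPM (-0.43). Of 15 genes of the interferon-gamma response 12 were at least 2-fold lower (median -1.93). The transcription factors Irf8 (1.60 against 122 CPM, -6.25) and Irf1 (12.4 against 120 CPM, -3.27) and the chemokine gene Cxcl9 (0.675 against 39.4 CPM, -5.87) were among them. Cxcl10, a chemokine that attracts T cells, was at 87.2 CPM in melanoma cells and 99.3 CPM in the others (-0.19), and Irgm1 at 42.0 against 44.2 CPM (-0.07). Against macrophages alone 17 of 17 type I genes were at least 2-fold lower (median -2.83), and against T cells alone 9 of 15 (median -1.34). For the interferon-gamma list these were 11 of 15 (median -1.56) and 12 of 15 (median -2.22). The sums of the lists hardly depended on the 5 cells rich in leukocyte UMIs: with and without them the type I list had 545 and 541 CPM in melanoma cells, against 1539 CPM in the others, and the interferon-gamma list 301 and 296 CPM, against 993 CPM. Cxcl10 was uneven: in the 116 deepest melanoma cells it had 0, 1 and 176 UMIs (lowest, median, highest), and the 10 highest held 62.7% of its UMIs.

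Receptors of cytokines differed in the same direction, 11 of 14 being at least 2-fold lower and none higher. The interferon-gamma receptor chain Ifngr1 had 17.7 CPM in melanoma cells and 419 CPM in the others (-4.56), while the other chain, Ifngr2, had 47.4 against 57.3 CPM (-0.27). The interferon type I receptor chains Ifnar1 (28.9 against 70.4 CPM, -1.28) and Ifnar2 (67.4 against 182 CPM, -1.43) and the death receptor Fas (0.759 against 20.7 CPM, -4.77) were lower. Il4ra, the shared chain for interleukin-4 and interleukin-13, had 20 UMIs in all melanoma cells, 1.69 CPM against 88.0 CPM in the others (-5.71), and was found in 5 of the 116 deepest cells. Tnfrsf1a, the main receptor of tumour necrosis factor, had 54.0 against 67.1 CPM (-0.31). Il1rl1, the interleukin-33 receptor, had no UMI, at least 78.7-fold below the 19.9 CPM of the others.

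Among immune ligands 7 of 11 were at least 2-fold lower. Cd274, which encodes PD-L1, had 18.0 CPM in melanoma cells and 101 CPM in the others (-2.49), and the anti-phagocytic Cd47 had 48.6 against 322 CPM (-2.73). Nectin2, a ligand of TIGIT and CD226, was the only one at least 2-fold higher, 12.2 against 4.03 CPM (1.60). The stress ligand Raet1e stood at 29.8 against 31.2 CPM (-0.07), and Pvr at 13.3 against 20.2 CPM (-0.60). Of 15 secreted factors 11 were at least 2-fold lower, such as Cxcl1 (0.169 against 57.9 CPM, -8.42), Ccl5 (-6.78) and Tgfb1 (32.4 against 205 CPM, -2.66). Mif, the macrophage migration inhibitory factor, was at least 2-fold higher (3996 against 1194 CPM, 1.74), and Vegfa had 72.9 against 145 CPM (-0.99).

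Genes of energy and lipid metabolism were mostly higher. TMM scaling lowers each of the ratios below by 0.34, which leaves the median of the cholesterol and lipid list above 2-fold and takes those of glycolysis and oxidative phosphorylation under it, still on the higher side. Of 16 glycolysis genes 9 were at least 2-fold higher and 1 lower, with a median of 1.20. Gapdh had 16045 CPM in melanoma cells and 4896 CPM in the others (1.71), and Tpi1 (2270 against 630 CPM, 1.85) and Pgk1 (2374 against 661 CPM, 1.84) had the highest ratios. The glucose transporter Slc2a1 was the 1 lower (69.7 against 156 CPM, -1.17). Per 5000 UMIs the list summed to 2, 168 and 417 UMIs in melanoma cells, 4, 63.5 and 313 in macrophages and 3, 34 and 217 in T cells, so the ranges overlapped around a higher median in melanoma cells. Of 17 nuclear genes of oxidative phosphorylation 10 were at least 2-fold higher and none lower (median 1.06), led after Ppargc1a by Ndufa4 (1754 against 377 CPM, 2.22). Transcripts of the mitochondrial genome did not share this: none of 8 passed 2-fold, from -0.79 (mt-Co3) to 0.67 (mt-Cytb). Of 14 cholesterol and lipid genes 10 were at least 2-fold higher (median 1.59), among them the desaturases Scd1 (30.1 against 2.82 CPM, 3.42) and Scd2 (202 against 30.8 CPM, 2.71) and Fdps of the sterol pathway (399 against 71.6 CPM, 2.48). Abca1, which exports cholesterol, was lower (3.79 against 82.1 CPM, -4.44). Of 13 iron and antioxidant genes 1 was at least 2-fold higher and 5 lower (median -0.43). The transferrin receptor Tfrc was the higher one (83.1 against 23.2 CPM, 1.84), and the cystine transporter Slc7a11 (6.49 against 63.5 CPM, -3.29) and the heme oxygenase Hmox1 (127 against 461 CPM, -1.86) were among the lower.

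Genes of the G2M phase were mostly higher, while fewer of S phase passed 2-fold. Of 17 G2M genes 14 were at least 2-fold higher (median 1.71), against macrophages alone all 17 and against T cells alone 11 with 1 lower, with Ccnb1 at 85.6 against 15.6 CPM (2.45) and its partner Cdk1 at 151 against 30.5 CPM (2.31). Mki67 had 156 CPM in melanoma cells and 87.1 CPM in the others (0.84). Of 16 S phase genes 6 were at least 2-fold higher (median 0.97), against macrophages alone 15 and against T cells alone 3 (median 0.46), led by the replicative helicase subunit Mcm2 (135 against 27.4 CPM, 2.30). The inhibitors of cyclin-dependent kinases were lower than in the other barcodes. Cdkn1a had 194 against 422 CPM (-1.12), with -1.56 against macrophages alone and less than a 2-fold difference against T cells alone. Cdkn2a, which encodes p16 and p19ARF, had no UMI among 11858620. With 8.37 CPM in the others, Cdkn2a was at least 33.1-fold lower, and its neighbour Cdkn2b, also at 0 against 1.41 CPM, at least 5.57-fold lower. Trp53 (84.3 against 71.9 CPM, 0.23) and Braf (58.1 against 52.6 CPM, 0.14) stayed under 2-fold. Among feedback genes of the MAPK pathway, Phlda1 (746 against 121 CPM, 2.63) and the phosphatase Dusp4 (85.2 against 14.6 CPM, 2.54) were higher, and Ier3 (-1.91) and Etv5 (-1.61) lower.

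Stress and survival genes were divided. Of the unfolded protein response list 5 of 13 were at least 2-fold higher and 1, Atf3, lower (53.5 against 439 CPM, -3.04). Among the higher were the amino acid response genes Chac1 (14.4 against 1.04 CPM, 3.79), Asns (76.3 against 6.73 CPM, 3.50) and Trib3 (16.8 against 2.95 CPM, 2.51). Of the hypoxia list 3 of 13 were higher and 4 lower: the carbonic anhydrase Car9 (108 against 9.44 CPM, 3.52) and adrenomedullin, Adm (54.8 against 12 CPM, 2.19), against Egln3 (1.86 against 49.3 CPM, -4.73) and Ndrg1 (28.8 against 84.2 CPM, -1.55). Heat shock and immediate early genes, which the enzymatic digestion used on these tumours is known to induce, were higher in 2 and lower in 6 of 13, with Hspa1a at 5.57 against 296 CPM (-5.73) and Junb at 114 against 1272 CPM (-3.47). Of 14 apoptosis and survival genes 8 were lower and none higher. The survival gene Mcl1 had 129 against 653 CPM (-2.34), and the near-identical copies Bcl2a1b and Bcl2a1d, whose reads cannot be told apart with certainty, 4.38 against 334 CPM (-6.25) and 0.675 against 149 CPM (-7.79). Of 16 genes of integrins, adhesion and matrix 3 were at least 2-fold higher and 7 lower (median -0.50). N-cadherin, Cdh2 (36.9 against 2.44 CPM, 3.92), and Cadm1 (212 against 16.3 CPM, 3.70) were among the higher, and the protease inhibitor Timp1 (24.9 against 106 CPM, -2.10) and the integrin Itgb3 (7.84 against 33.1 CPM, -2.08) among the lower.

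Xist, the RNA of the inactive X chromosome, was nearly missing from melanoma cells. They had 29 UMIs of it, 2.45 CPM against 315 CPM in the others (-7.01), and 212 of the 228 had none. Of the 152 deep cells 140 had none and none had more than 4. Transcripts of the Y-linked Ddx3y, Eif2s3y, Kdm5d and Uty were also at 0 in melanoma cells, and had 8 UMIs in the whole kept Tc1 library, against 479 in the Tc9 library.

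Melanoma cells differed among themselves in how much pigment RNA they held. Each of the 171 cells with at least 5000 UMIs was thinned to that depth, and 57 shallower cells were left out. Of 5000 UMIs the 4 genes took 3 at the lowest, 58 at the median and 481 at the highest. Pmel had 0, 21 and 274 UMIs (lowest, median, highest), Dct 0, 18 and 128, Mlana 0, 8 and 31 and Tyrp1 0, 8 and 72. Tyr had 0, 2 and 38 and Mitf 0, 1 and 10. In macrophages the sum of the 4 genes had a median of 0 and a highest value of 9, and in T cells 0 and 8, both under the 10 UMIs that limited these populations before thinning. The share of each gene in the sum also varied: over 156 cells with at least 10 such UMIs, Pmel made up 36.4% at the median (0 to 64.8%), Dct 29.9% (6.15 to 87.0%), Mlana 13.5% (0 to 57.4%) and Tyrp1 14.6% (0 to 40.4%).

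Genes of the melanosome led those that followed the pigment sum across cells. Spearman correlations over the 171 cells, which share 1 library, are given as a description. Of 3222 genes with a UMI in at least 20% of the cells, 48 (1.49%) had a rho of 0.4 or more with the pigment sum and none of -0.4 or less. The highest were the tetraspanin Cd63 (0.70), Slc45a2 (0.68), the lipid carrier Apoe (0.64), the melanosomal glycoprotein Gpnmb (0.61), Tyr (0.61), the prostaglandin D synthase Ptgds (0.59), the lipase Mgll (0.58), Aebp1 (0.57), Glmp (0.56) and Tspan10 (0.56). The lowest were Gm42418 (-0.40), the cell cycle inhibitor Cdkn1a (-0.37) and the actin regulator Cfl1 (-0.34). Between the 57 cells with the highest and the 57 with the lowest pigment sum, 9.25% of genes were at least 2-fold higher and 3.97% lower. The melanosome genes outside the rule summed to 5712 UMIs in the high cells and 1947 in the low cells (log2 ratio 1.55), and 10 of the 17 detected were at least 2-fold higher. Ptgds had 1824 UMIs in the high cells and 443 in the low cells (2.04), Mgll 740 against 192 (1.95), and Cdkn1a 34 against 132 (-1.96). Mitf differed less, 134 against 102 UMIs (0.39).

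Depth moved with the pigment sum, and part of the pattern was not seen in the deepest cells. The high cells had a median of 79173 UMIs before thinning and the low cells 12964, and the rho of pigment with depth was 0.36. The unfolded protein response list, whose chaperones fold proteins of the secretory route, summed to 1042 UMIs in the high and 518 in the low cells, with a rho of 0.45 with pigment. Among the 116 cells with at least 40000 UMIs this rho was 0.17 and that of pigment with depth -0.13, while the melanosome list kept a rho of 0.69 with pigment there (0.79 over all 171). Cholesterol and lipid genes (525 UMIs in the high and 261 in the low cells, rho 0.43) had a rho of 0.27 in the 116, and mitochondrial RNA (4113 against 2098, rho 0.46) one of 0.33. Depth itself, between the 57 deepest and the 57 shallowest of the 171, left 8.62% of genes at least 2-fold higher and 7.87% lower after thinning. G2M genes had 822 UMIs in the deepest and 292 in the shallowest cells (1.49), mitochondrial RNA 2007 against 3497 (-0.80) and the 4 pigment genes 3600 against 2952 (0.29). The split by the unfolded protein response sum, chosen after the data were seen, left 5.78% of genes higher and 1.99% lower, with the 4 pigment genes at 4656 against 2628 UMIs (0.83). The part of depth and RNA quality in these relations was not tested.

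**Figure D4:**
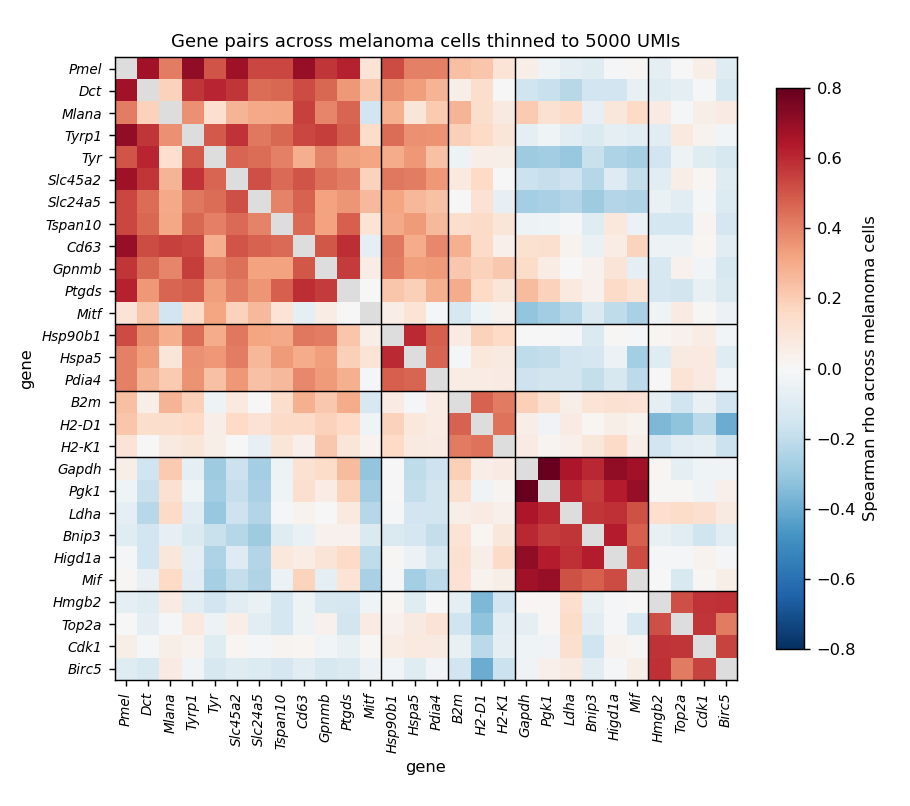
Spearman rho for each pair of 28 genes (rows and columns, lines part the groups pigment, chaperone, class I, glycolysis and hypoxia, and cell cycle) across 171 melanoma cells thinned to 5000 UMIs; red is positive and blue negative. Pigment genes other than Mitf, the glycolysis and hypoxia group and cell cycle genes each form a block of positive values. Mitf pairs weakly with the pigment genes. Cd63, Slc45a2, Gpnmb, Tyr, Ptgds and Tspan10 were among the 10 highest correlations with the pigment sum in these same cells. Higd1a, Mif and Bnip3 were among those with the glycolysis sum. The pigment and glycolysis blocks therefore follow in part from which genes are shown.

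The cell cycle sum had a weak negative relation to the pigment sum, while some melanosome genes were lower in cycling cells. The summed S and G2M lists had a rho of -0.07 with the pigment sum over 171 cells. Among the 116 cells with at least 40000 UMIs this rho was -0.17. Depth had a rho of 0.36 with pigment and 0.37 with the cell cycle sum over the 171. In the 116 these were -0.13 and 0.41. The part of depth in this relation was not tested. G2M genes had 0, 3 and 45 UMIs of 5000 (lowest, median, highest), and 45 of 171 cells had none. Of 3207 genes 61 (1.90%) had a rho of 0.4 or more with the cell cycle sum, led by H2afz (0.71), Pclaf (0.70), Tuba1b (0.65) and Hmgb1 (0.65), and 1 gene, Anxa2 (-0.40), one of -0.4 or less. Between the 57 cells with the highest and the 57 with the lowest cell cycle sum, 11.1% of genes were at least 2-fold higher and 10.1% lower. Hypoxia genes summed to 294 UMIs in the high and 661 in the low cells (-1.17), with Bnip3 at 67 against 173 UMIs (-1.37) and Car9 at 21 against 53 (-1.34). Of the 17 melanosome genes 5 were at least 2-fold lower in the high cells and none higher, led by Oca2 (32 against 146 UMIs, -2.19), Myo5a (68 against 223, -1.71) and Ptgds (543 against 1428, -1.39). Class I genes summed to 414 UMIs in the high and 742 in the low cells (-0.84), and without the 5 cells rich in leukocyte UMIs to 399 against 645 (-0.69). UMIs of pan-leukocyte and macrophage markers, Apoe included, moved with this split, 367 in the high and 621 in the low cells, as did Cd74, 21 against 151, and their part in it was not tested. Cycling cells were deeper, with a median of 94634 UMIs in the high and 52324 in the low cells.

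Glycolysis and hypoxia genes formed a further axis, whose split was chosen after the data were seen. The glycolysis sum had a rho of 0.57 with the hypoxia list over 171 cells and 0.72 over the 116 deepest. The 57 cells with the highest glycolysis sum had 802 UMIs of hypoxia genes and the 57 with the lowest 238 (1.75), at a background of 3.77% of genes at least 2-fold higher and 16.4% lower. Bnip3, a mitophagy receptor that hypoxia induces, had 239 UMIs in the high and 18 in the low cells (3.73), Car9 67 against 8 (3.07), Ero1l 267 against 80 (1.74) and Vegfa 40 against 20. Higd1a (0.75), Mif (0.67), Bnip3 (0.67) and Fam162a (0.67) had the highest rho with glycolysis. Of 5 lineage genes with enough UMIs 3 were at least 2-fold lower in the high cells: Mitf had 74 UMIs in the high and 157 in the low cells (-1.09), Pax3 70 against 168 (-1.26) and Met 150 against 301. Sox10 had 35 against 52 UMIs (-0.57) and Tfap2a 17 against 19 (-0.16). The list summed to 353 UMIs in the high and 706 in the low cells, and in the 116 deepest cells to 283 against 376 (-0.41). Of 83 ribosomal protein genes 19 had a rho of 0.4 or more with glycolysis, and the nuclear RNA Malat1 had one of -0.30. The part of RNA quality in this axis was not tested.

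Class I genes varied over a wide range, and no gene outside the list followed their sum closely. The sum was small, 7 of 5000 UMIs at the median, which limits any rho. It moved mostly with B2m (rho 0.88). None of 3222 genes outside the list had a rho of 0.4 or more with the class I sum. The highest were P4hb (0.35), Ctsz (0.35) and the interferon-induced Bst2 (0.34) and Ifitm3 (0.34), and pairs within the list, such as H2-D1 and B2m, are shown in the map of gene pairs. Between the 57 cells with the highest (10 to 91 UMIs) and the 57 with the lowest class I sum (0 to 5 UMIs), 2.98% of genes were at least 2-fold higher and 7.95% lower. Genes of the interferon-gamma response summed to 183 UMIs in the high and 53 in the low cells (1.79), and G2M genes to 284 against 625 (-1.14). Without the 5 cells rich in leukocyte UMIs these sums were 148 against 53 (1.48) and 286 against 600 (-1.07). The class II list depended on those 5 cells: 645 UMIs in the high and 28 in the low cells with them (4.53), and 117 against 28 without them (2.06). UMIs of pan-leukocyte and macrophage markers, Apoe included, moved with the class I split over all 171 cells, 694 in the high and 309 in the low cells. The part of such RNA in these differences was not tested. Of 171 cells 93 had no UMI of the interferon-gamma list.

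**Figure D5:**
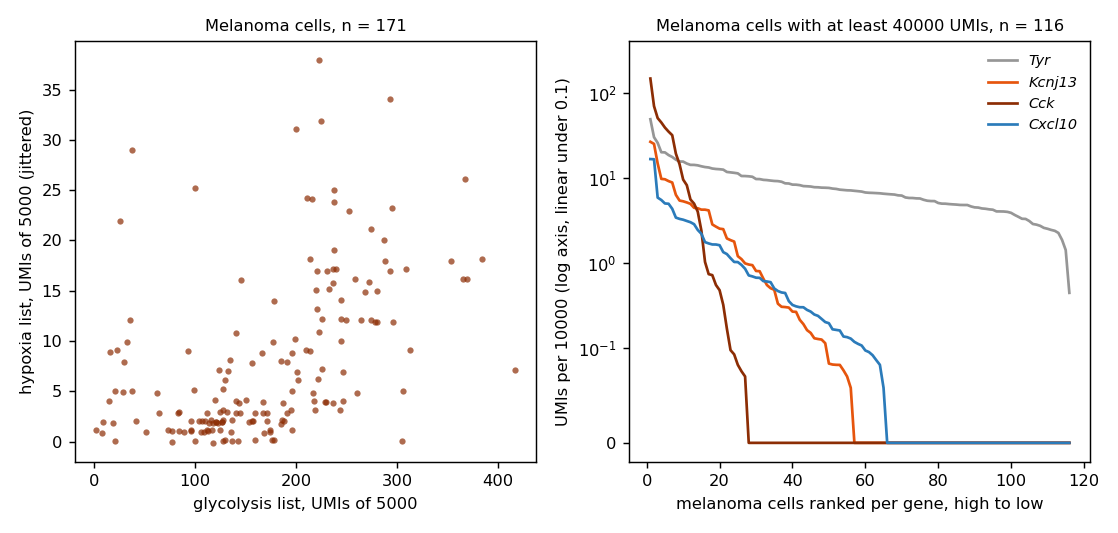
Left, UMIs of the hypoxia list (vertical, jittered) against those of the glycolysis list (horizontal) in 171 melanoma cells thinned to 5000 UMIs, where high hypoxia sums lie mostly at high glycolysis sums (rho 0.57). Right, UMIs per 10000 (vertical, log scale, linear under 0.1) of 4 genes in the 116 melanoma cells with at least 40000 UMIs, each gene ranked from high to low: Tyr is found in all 116, Cxcl10 in 65, Kcnj13 in 56 and Cck in 27.

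A few genes were found at high levels in few cells. Among the 116 cells with at least 40000 UMIs, 3091 genes had 50 CPM or more, and the median such gene had a UMI in 99.1% of the cells with 20.2% of its UMIs in the 10 highest. In 4 of them, Cck, Kcnj13 and the mitotic genes Hmmr and Aspm, under 50% of the cells had a UMI. Cck was the most uneven: 89 of 116 cells had none, 15 had at least 20 UMIs, the highest had 1160, and the 10 highest held 93.3% of its UMIs. Kcnj13 had none in 60 cells and up to 221 UMIs in the others, and Ccl2, at 28.3 CPM, had 94.1% of its UMIs in 10 cells, 249 of them in the highest. Tyr, in contrast, ranged from 2 to 233 UMIs with a median of 64.5, and Pmel from 3 to 1548 with a median of 493. These genes were singled out after their values were seen.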

How the data were processed

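Single-cell RNA was captured with the 10x Genomics 5′ kit (version 2), per the labels' protocols. The deposited matrices hold UMI counts per gene and barcode, not normalized, and the T cell receptor tables hold contigs with UMI counts per the file headers. Cell Ranger 7.0.0 and mm10 (GRCm38) are named in the submitters' processing notes. The members and gene lists were chosen with earlier results of these data known. Counts were summed over barcodes, divided by their total and given as CPM, for genes with at least 10 CPM in melanoma cells or the other barcodes. Ratios carry an exact binomial 95% interval, shares an exact Clopper-Pearson one, and a count of 0 a floor of 3 counts. Cells were thinned at random to 5000 UMIs for variation and to 2000 for pigment UMIs in other barcodes. No doublet caller was run and no doublets were removed. Genes named are the 15 highest and 10 lowest ratios at 50 CPM or more, up to 4 per list, a fixed set of lineage, class I and immune genes, and the 10 highest and lowest correlations; further genes named from the lists, and the splits by glycolysis, were chosen after their values were seen. Some genes that the rule names are not reported here. Fibroblasts (37 barcodes) were too few for comparison. Promoters were taken from RefSeq (GRCm38.p6). With no replicates, no p-value was computed. The calculation of ratios was tested on simulated data. Python 3.11.15, numpy 2.4.6, scipy 1.17.1, pandas 2.3.3 and matplotlib 3.10.9 were used.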

Additional observations from a re-analysis of the deposited data

How the results depend on the processing

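No paired analysis was possible because each group had 1 RNA library, and leaving out a replicate was not possible for the same reason. The share of melanoma cells among kept barcodes was 2.29%, 1.59% and 1.27% with at least 5, 20 and 50 pigment UMIs, and with no C1q and no Cd3 UMI it was 1.08% (129 cells). With no minimum level, 9374 genes were at least 2-fold higher and 4890 lower, and with a minimum of 50 CPM 1161 and 1072. The 9374 include genes with no UMI in melanoma cells that the floor of 3 counts placed above a lower level in the others, such as Ddx3y. Genes with a rho of 0.4 or more with pigment were 48, and numbered 13 after thinning to 2000 UMIs, 17 in cells with at least 50 pigment UMIs and 21 in cells with at least 40000 UMIs. Without thinning, 27.1% of T cells had a pigment UMI. The median of the X-inactivation and Y-linked list became 2.96 with no minimum level, which came from the floor. Ddx3y, Eif2s3y, Kdm5d and Uty had no UMI in melanoma cells and entered at 3 counts (0.253 CPM). In the others they had 0.0325 CPM or less. Among cells with at least 40000 UMIs the rho of Pmel with depth became -0.16 and that of Lyst with glycolysis 0.00813. The cause of these 2 changes was not tested. Over the alternatives, 1793 of 2122 log2 ratios of named genes lay within 1.5-fold of the reported value, as did 401 of 442 list medians, and 395 of 690 correlations lay within 0.1. Members under 10000 UMIs, 76 of 228, hold few UMIs, so the levels describe the deep cells.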
